A study of Mus musculus with 6 samples.

Results

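The genes described here encode glycolysis, the route from glucose to pyruvate and lactate: the glucose and lactate transporters, the enzymes of each step with their tissue isoforms, the bifunctional PFKFB enzymes, the pyruvate dehydrogenase kinases and the arrestin-like uptake inhibitor TXNIP. They were taken from a list of 34 gene symbols, and 30 of these had at least 1 probe set annotated to that symbol alone, out of 18193 genes measured in the series. Gapdh was reached only by probe sets that carry several symbols or serve as array controls, and Gpi1, Eno1 and Pfkfb1 were not analysed here. Where a gene had several probe sets, the probe set with the highest mean log2 intensity over the 6 arrays stood for it.

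Mouse leukaemias of immature T cells (T-ALL) were profiled on microarrays. The leukaemias were driven by Notch1-deltaE, a truncated and active form of the receptor NOTCH1, and carried mycGFP, so that green fluorescence follows c-MYC. All cells came from C57BL/6 spleens, at a labelled age of 12 weeks and 4 weeks after transplantation into congenic recipients, and were CD25+; mCherry and GFP were the sort markers. The 3 MycGFP negative and the 3 MycGFP positive arrays thus share genotype, tissue, CD25 and transplantation and differ in GFP, and the design names 3 independent leukaemias. The labels do not say which array came from which leukaemia, so each p-value reflects array-to-array spread, which may be technical. On bulk RNA, fewer cells expressing a gene and less RNA per cell cannot be told apart. Values are intensities on a linear scale, differences are log2 differences of MycGFP positive minus negative, and an intensity near the array medians of 30.5 to 32.7 may be background. Intensities of different probe sets are not compared in level, since each probe set binds its target with its own strength.

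The T lineage was plainly present: all 9 measured T lineage markers lay above the array median, and they summed to between 74186 and 80495 in negative cells and between 62509 and 73523 in positive cells. No marker of another cell type passed the test without the array number as a block, at 0.05 after adjustment over all genes. With that block 3 were lower in positive cells. They were the endothelial marker Pecam1, at a log2 difference of -0.96 (limma, adjusted p = 0.0904 without and 0.0416 with the block), the B cell marker Cd79b at -1.28 (0.445 and 0.0452) and the granulocyte marker S100a9 at -1.47 (0.743 and 0.0482). S100a9 measured 675, 4372 and 50.9 on negative and 247, 1041 and 27.2 on positive arrays, so each positive array was below the negative array of its number while the groups overlapped. The summed intensity of 5 granulocyte markers ran from 108.5 to 9798 on negative and from 106 to 2509 on positive arrays, with S100a8 at 4467 on negative array 2 and 871 on positive array 2. Another granulocyte marker, Mpo, measured 10.5, 621.5 and 11.0 on negative and 13.4, 499.4 and 8.19 on positive arrays. Negative array 2 also had the highest Lyz2 signal, a myeloid marker, at 850.3. The myeloid marker Csf1r measured 18.2, 52.9 and 89.4 on negative and 25.8, 27.05 and 18.6 on positive arrays. The other myeloid markers, Itgam, Cd14 and Adgre1, were below the array median on all 6 arrays. So were the B cell marker Pax5, the erythroid marker Hba-a1 and the endothelial and stromal markers Cdh5 and Col1a2. The 3 measured erythroid markers summed to 45.9 to 69.3 and 40.8 to 53.2, the 4 B cell markers to 190 to 731 and 96.7 to 443, and the 2 dendritic cell markers to 53.9 to 70.8 and 47.1 to 58.8. The 5 myeloid markers summed to 110 to 936 and 85.4 to 224. The 4 endothelial and stromal markers, at 407 to 937 and 263 to 360, and the 3 NK markers, at 4464 to 5010 and 5568 to 7852, did not overlap between the groups. Of these NK markers Ncr1 and Eomes lay below the array median on all 6 arrays, so Gzma made up the sum. Pecam1 made up most of the endothelial and stromal sum, at 669, 528 and 358 on negative and 305, 253.5 and 220 on positive arrays. Col1a1 measured 244.5 on negative array 1 and 14.8 to 33.8 on the others. RNA quality was read from Gapdh and actin controls at both transcript ends. The 3' over 5' intensity of Gapdh, itself a listed gene, ranged from 1.58 to 1.89 in the negative group and from 1.48 to 1.58 in the positive group. That of actin was 1.54, 1.87 and 1.83 on negative and 1.85, 1.80 and 1.72 on positive arrays, so its groups overlapped. The part of these differences in the results was not tested.

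Glycolysis splits glucose into pyruvate in the cytosol. In proliferating lymphocytes and leukaemias much of this pyruvate is reduced to lactate by lactate dehydrogenase and exported, while pyruvate dehydrogenase kinases hold back its entry into the mitochondrial cycle. c-MYC is known to raise the transcription of several genes of this route, and TXNIP, induced by MondoA when glucose derivatives accumulate, limits glucose uptake.

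In MycGFP positive cells the hexokinase gene Hk2, the mutase gene Pgam1, the lactate dehydrogenase gene Ldha and the kinase gene Pdk3 were higher, by 6.11-fold, 2.52-fold, 2.18-fold and 1.87-fold, and Txnip was 2.53-fold lower (limma, adjusted p = 0.0170 to 0.0441, 3 arrays against 3). These were 4 genes higher and 1 lower of 30, against 4.62% higher and 1.51% lower of all 18193 genes, so 13.3% and 3.33% of the glycolysis genes. The other 25 genes, among them both main glucose transporters and the lactate exporter Slc16a1, did not pass. The median log2 difference of the 30 genes was 0.21, beside 0.01 over all genes, and 21 of the 30 differences were above 0, or 70.0%, as were 51.6% of those of all genes. In 13 of the 30 genes the groups did not overlap, 11 with the positive arrays higher, where 28.1% of all genes were separated, 17.0% with the positive arrays higher. Adding Gapdh by its 3' control probe set, a step chosen after seeing the data, left the 5 calls in place. None of the 5 genes passed without negative array 2 (adjusted p = 0.0605 to 0.129), positive array 1 (0.0585 to 0.0726), positive array 2 (0.0761 to 0.100) or positive array 3 (0.0606 to 0.0988). At an unadjusted p under 0.05 there were 10, 10, 7 and 8 of the 30 genes without these arrays, beside 10 with all 6, where 22.1% of all genes reached it. With the array number as a block, 5 of the 30 genes were higher and 2 lower, beside 5.75% and 1.95% of all genes.

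**Figure D1:**
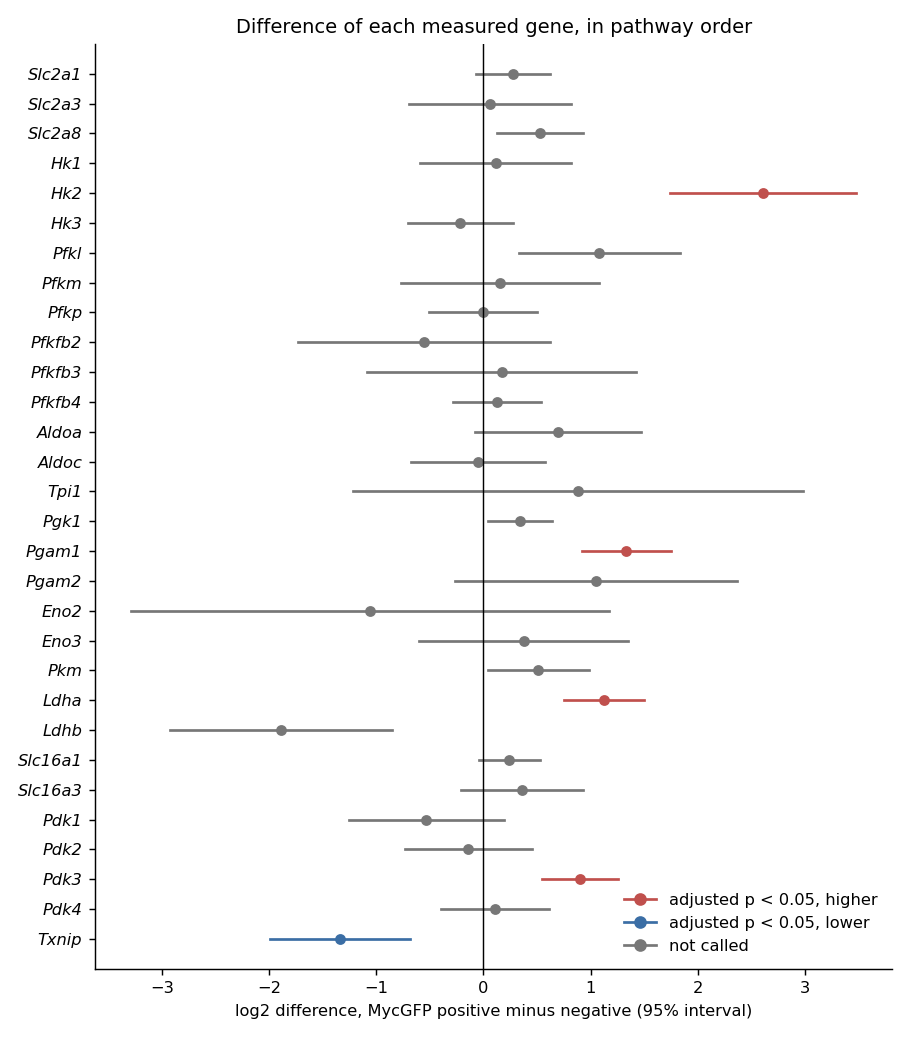
Log2 differences of MycGFP positive minus negative cells for the 30 measured genes, from glucose uptake at the top to Txnip at the bottom; points are limma estimates from 3 against 3 arrays and lines their 95% intervals. Hk2 (2.61), Pgam1, Ldha and Pdk3 are coloured as higher and Txnip (-1.34) as lower, while Ldhb lies at -1.89 without passing.

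Glucose enters T cells through GLUT1 and GLUT3, encoded by Slc2a1 and Slc2a3. Slc2a1 had intensities of 1523, 1577 and 1266 on negative arrays and of 1818, 1629 and 1833 in positive cells. The groups did not overlap, but the log2 difference of 0.28 (95% interval -0.07 to 0.62) was not called (limma, adjusted p = 0.329). Slc2a3 measured 2543, 3136 and 5589 on negative and 3129, 3827 and 4205 on positive arrays. Its groups overlapped, with the highest value of all on negative array 3. The log2 difference of 0.06 (95% interval -0.70 to 0.82) turned negative, at -0.091, when each array was centred on its median over genes. Slc2a8, the gene of an intracellular glucose transporter, had 60.3, 57.2 and 44.2 on negative and 70.4, 79.8 and 81.6 on positive arrays. Every positive value was above every negative value, at a log2 difference of 0.53 (95% interval 0.13 to 0.93; limma, unadjusted p = 0.0177, adjusted p = 0.124).

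Hexokinases trap glucose in the cell by phosphorylation. Hk2, the inducible isoform, measured 61.4, 119 and 149 on the negative arrays and 577, 799 and 538 on the positive arrays. All positive values were more than 3 times the highest negative value. The means were 110 ± 44.7 and 638 ± 141 (SD, n = 3), a log2 difference of 2.61 ± 0.36 (SE; limma, adjusted p = 0.0194). Hk1, the isoform of most tissues, had 203, 263 and 209 against 159, 327 and 272, and both the highest and the lowest value were positive arrays. Its log2 difference was 0.11 (95% interval -0.59 to 0.82; adjusted p = 0.881) and changed sign, to -0.035 and -0.070, under median centring and quantile normalization. Hk3, an isoform of myeloid cells, had 71.8, 53.3 and 62.3 against 66.6, 44.7 and 50.9, also overlapping, at -0.22 (95% interval -0.71 to 0.27; limma, adjusted p = 0.622).

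Within each array, the log2 intensity of Hk2 minus that of Hk1 was -1.72, -1.15 and -0.48 in negative and 1.86, 1.29 and 0.99 in positive cells, a change of 2.50 ± 0.44 (SE). Set against Hk3 the change was 2.83 ± 0.57 (SE), and the groups did not overlap in either case. Exact permutation tests gave p = 0.1 for both, the smallest that 3 against 3 arrays allow, and adjusted p = 0.15 over the 9 isoform pairs compared. These pairs were chosen after the values were seen, and their changes are descriptions. Slc2a1 against Slc2a3 changed by 0.22 (exact permutation p = 0.9) and Slc16a1 against Slc16a3 by -0.12 (p = 0.8), with overlapping groups in both.

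**Figure D2:**
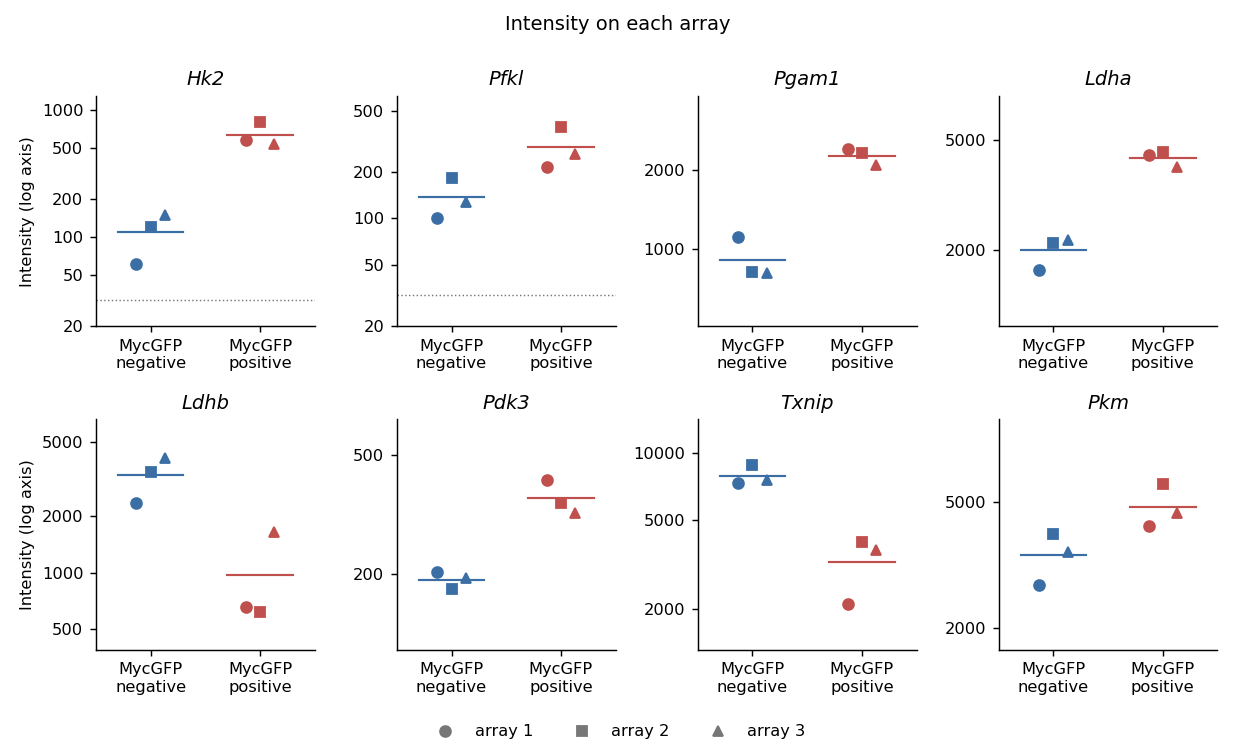
Intensity on each array (log axis) of the 5 genes that passed the test and of Pfkl, Ldhb and Pkm, which did not; symbols give the array number, lines the arithmetic means and the dotted line the mean of the array medians where it is in range. For Hk2 the positive arrays lie between 538 and 799 and the negative ones between 61.4 and 149.

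Phosphofructokinase commits the sugar to glycolysis, and its liver, muscle and platelet type subunits are encoded by Pfkl, Pfkm and Pfkp. Pfkl had intensities of 100.2, 183 and 128 on negative and 216, 392 and 263 on positive arrays. The groups were separate, with array 2 the highest in each. The log2 difference was 1.08 (95% interval 0.33 to 1.83), not called without the array number as a block (limma, adjusted p = 0.101) and called with it (adjusted p = 0.0295). Its probe sets disagreed: a further probe set gave 0.75 and another, whose groups overlapped, -0.54 (adjusted p = 0.0647 and 0.552 over all named probe sets). Pfkp, at 889, 879 and 1256 against 955, 1184 and 860, had a log2 difference of -0.005 (95% interval -0.51 to 0.50; limma, adjusted p = 0.995), which was slightly above 0, at 0.13, when all probe sets were averaged. Pfkm, at 165, 283 and 432 against 251, 401 and 277, had a difference of 0.15 (95% interval -0.77 to 1.08; limma, adjusted p = 0.877), or -0.017 after quantile normalization. Both sets of values overlapped fully between the groups. The change of Pfkl relative to Pfkp within arrays was 1.09 ± 0.36 (SE; exact permutation p = 0.1).

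The PFKFB enzymes make and remove fructose 2,6-bisphosphate, the main activator of phosphofructokinase. None of the 3 measured genes passed. Pfkfb3, the isoform of proliferating cells, had 226, 346 and 81.9 on negative and 241, 201 and 189 on positive arrays, so the negative arrays held both the highest and the lowest value. Its log2 difference was 0.17 with all arrays (95% interval -1.08 to 1.42; limma, adjusted p = 0.906), -0.015 after quantile normalization and -0.42 without negative array 3. Pfkfb2 had 107, 118 and 129 against 36.3, 134 and 107. The low value on positive array 1 made the difference -0.55 (adjusted p = 0.596), and without that array it was 0.018 (adjusted p = 0.973). Pfkfb4 lay at 26.8 to 39.1, around the array medians, so its level may be background.

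In the second phase of glycolysis the sugar is split and energy is recovered. Aldoa, the aldolase of most tissues, measured 1399, 2503 and 2532 on negative and 3142, 4587 and 2614 on positive arrays. Its groups barely separated, at a log2 difference of 0.70 (95% interval -0.08 to 1.47; limma, adjusted p = 0.271), and its 5 probe sets gave 0.39 to 0.70. Aldoc, the brain isoform, lay at 9.08 to 16.9, below the array medians on all 6 arrays. Tpi1, the triose phosphate isomerase gene, measured 309, 889 and 3827 on negative arrays, a 12.4-fold range, and 1684, 2362 and 1657 on positive arrays. Its positive values lay between the middle and the highest negative value, and the log2 difference of 0.88 (95% interval -1.22 to 2.99; limma, adjusted p = 0.643) was 1.84 without negative array 3 and 0.024 without negative array 1. All 3 Tpi1 probe sets had negative array 1 lowest and negative array 3 highest.

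Pgk1, the phosphoglycerate kinase gene, had 5541, 6193 and 5553 against 7409, 7598 and 6848. The groups were separate and each spread by about 1.1-fold, and the log2 difference was 0.34 (95% interval 0.04 to 0.64; limma, unadjusted p = 0.0320, adjusted p = 0.175). Its other probe sets gave larger differences, of 0.57 and 0.50 (adjusted p = 0.0649 and 0.0750 over all named probe sets). The 3' control probe set of Gapdh, which encodes the dehydrogenase before this step, measured 10012, 9672 and 10313 on negative and 11660, 11960 and 12057 on positive arrays. These did not overlap either, at a log2 difference of 0.25 (limma with this probe set added, adjusted p = 0.262). The 5' control probe set measured 5301, 6112 and 5778 on negative and 7379, 8054 and 8173 on positive arrays. The middle one measured 6071, 6361 and 6745 against 8950, 9105 and 9287. Both were separate between the groups but were not fitted, so 0.25 holds for the 3' probe set alone.

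Pgam1, the general phosphoglycerate mutase gene, measured 1106, 811 and 807 on negative and 2395, 2329 and 2083 on positive arrays. The groups were far apart relative to their spread, with means of 908 ± 171 and 2269 ± 165 (SD, n = 3). The group means of log2 intensity differed by 1.33 ± 0.17 (SE; 95% interval 0.92 to 1.75; limma, adjusted p = 0.0170). Pgam2, the muscle isoform, had 38.0, 39.8 and 77.6 against 54.2, 92.5 and 209, with array 3 the highest in each group. Its groups overlapped and the log2 difference of 1.05 (95% interval -0.26 to 2.36) was not called (limma, adjusted p = 0.332). The change of Pgam1 relative to Pgam2 within arrays was 0.28 ± 0.76 (SE; exact permutation p = 0.8), so these data do not show that the isoforms differed in their change.

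Of the measured enolase genes, Eno2, the neuronal isoform, lay at 9.08 to 11.9 on 5 arrays and at 104 on negative array 3 alone. Its log2 difference was -1.06 (adjusted p = 0.591), and 0.064 without that array (limma, adjusted p = 0.893). Eno3, the muscle isoform, had 192, 113 and 74.3 against 120, 219 and 133, which overlapped (log2 difference 0.38; limma, adjusted p = 0.673). Pkm, the pyruvate kinase gene, measured 2744, 3963 and 3466 on negative and 4203, 5661 and 4615 on positive arrays. Each group had array 1 lowest and array 2 highest, and the groups did not overlap. The log2 difference of 0.51 (95% interval 0.04 to 0.99; unadjusted p = 0.0375) was not called (limma, adjusted p = 0.193).

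The lactate dehydrogenase genes differed in opposite directions. LDHA subunits favour the reduction of pyruvate to lactate and LDHB subunits the reverse reaction. Ldha measured 1678, 2119 and 2169 on negative and 4438, 4531 and 3990 on positive arrays. All positive values exceeded all negative ones, at means of 1989 ± 270.1 and 4320.0 ± 289 (SD, n = 3) and a log2 difference of 1.13 ± 0.15 (SE; limma, adjusted p = 0.0188). Ldhb measured 2366, 3462 and 4125 on negative and 656, 620 and 1641 on positive arrays. Every positive value was below every negative one, with positive array 3 apart from the other two. The log2 difference of -1.89 ± 0.43 (SE; 95% interval -2.93 to -0.85) missed the threshold in the fit without a block (limma, adjusted p = 0.0582) and passed with the array number as a block (0.0329) and without positive array 3 (0.0491). Its 4 probe sets gave -1.90 to -1.87.

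The log2 intensity of Ldha minus that of Ldhb was -0.50, -0.71 and -0.93 on negative and 2.76, 2.87 and 1.28 on positive arrays. The change was 3.01 ± 0.53 (SE), the largest of the 9 isoform pairs (exact permutation p = 0.1).

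**Figure D3:**
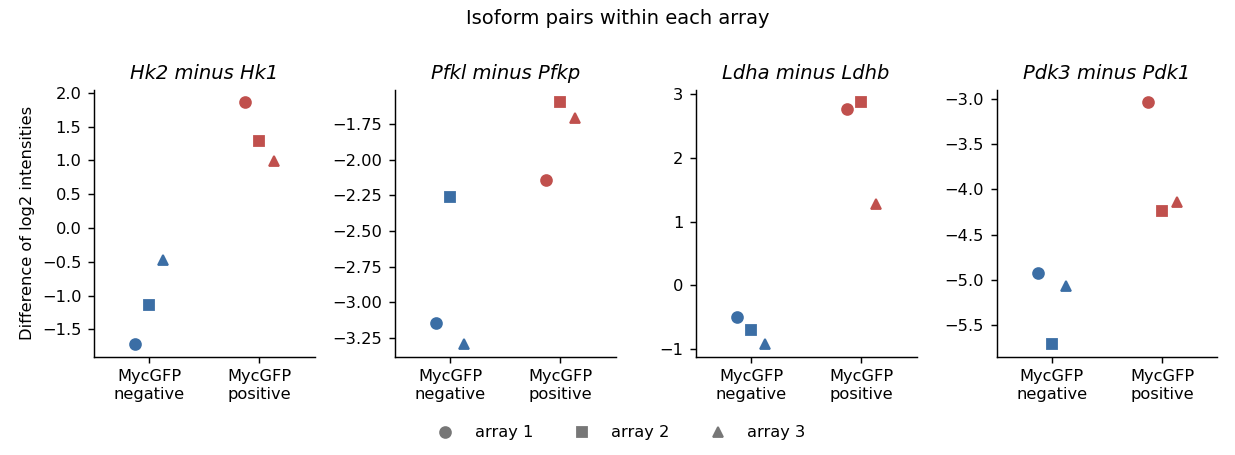
Difference of log2 intensities between isoform genes on each array, for Hk2 minus Hk1, Pfkl minus Pfkp, Ldha minus Ldhb and Pdk3 minus Pdk1; symbols give the array number. Only the step between groups can be read, not the height, and in all 4 panels the 3 positive arrays lie above the 3 negative ones. The 4 pairs shown were taken from those of the 9 compared whose groups did not overlap.

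Lactate leaves the cell through MCT1 and MCT4, encoded by Slc16a1 and Slc16a3. Slc16a1 had 6594, 6401 and 7083 against 7929, 7625 and 8152. The groups were tight and separate, at a log2 difference of 0.24 (95% interval -0.04 to 0.52; limma, adjusted p = 0.303). Slc16a3 lay at 17.0 to 32.0, above the array median on 1 array only. Its difference of 0.36 (limma, adjusted p = 0.456) compares signals near background.

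Pyruvate dehydrogenase kinases switch off the enzyme that feeds pyruvate into the mitochondrial cycle. Pdk3 measured 202, 178 and 194 on negative and 412, 346 and 320 on positive arrays. The groups were separate, with means of 191 ± 12.3 and 359 ± 47.7 (SD, n = 3) and a log2 difference of 0.90 ± 0.15 (SE; 95% interval 0.55 to 1.26; limma, adjusted p = 0.0277). This call was lost when each array was centred on its median over genes (limma, adjusted p = 0.0536). It was also lost with a trended and robust variance (0.0676) and without negative array 3 (0.0576). Pdk1 had 6143, 9363 and 6502 against 3379, 6514 and 5623, with the highest positive value above 2 of the negative ones. Its log2 difference was -0.53 (95% interval -1.26 to 0.19; limma, adjusted p = 0.378). Of its other probe sets 2 gave -0.67 and -0.55, and the remaining one -2.72, with 1042, 1613 and 477 on negative and 61.6, 300 and 151 on positive arrays (adjusted p = 0.0697 over all named probe sets). Pdk2 and Pdk4 lay at 7.26 to 13.2 and 7.33 to 11.3, below the array medians on all 6 arrays. The change of Pdk3 relative to Pdk1 within arrays was 1.43 ± 0.46 (SE; exact permutation p = 0.1).

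Txnip measured 7365, 8893 and 7621 on negative and 2099, 4013 and 3672 on positive arrays. The groups were separate, with positive array 1 the lowest. The means were 7960 ± 819 and 3261 ± 1021 (SD, n = 3), with a log2 difference of -1.34 ± 0.27 (SE; 95% interval -1.99 to -0.69; limma, adjusted p = 0.0441). The other Txnip probe set, with 1674, 1691 and 1541 against 253, 567 and 509, gave -1.97 (adjusted p = 0.0246 over all named probe sets). The call for Txnip was lost without any single array (adjusted p = 0.0585 to 0.129) and with log2 of the intensity plus 16 (0.0552).

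**Figure D4:**
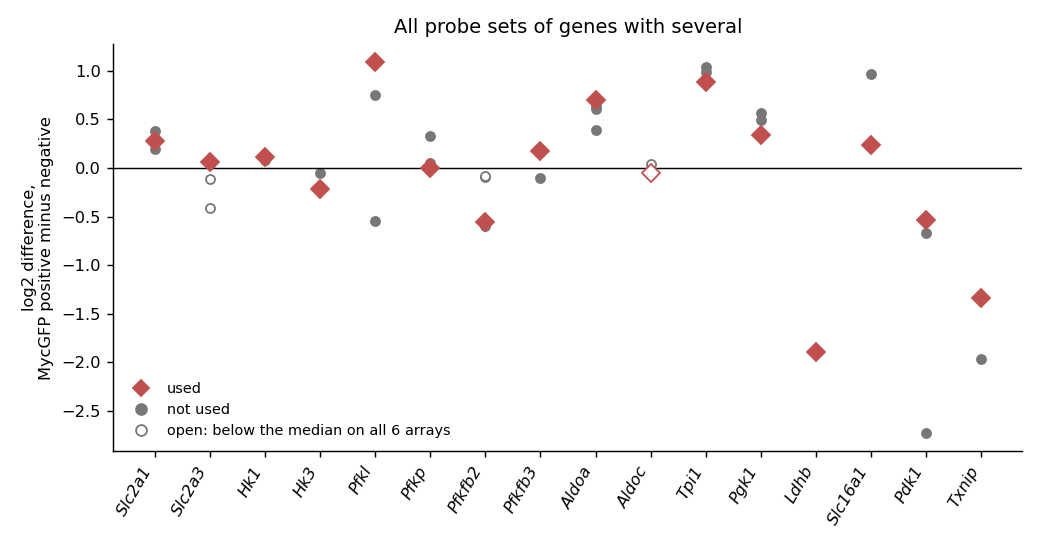
Log2 differences of every probe set of the 16 genes that have several; diamonds mark the probe set used, and open symbols those below the array median on all 6 arrays. The 4 Ldhb probe sets coincide at about -1.89, while those of Pfkl range from -0.54 to 1.08 and those of Pdk1 from -2.72 to -0.53.

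Some genes varied more among the negative arrays than between the groups. In 8 of the 30 genes the highest negative value was over 2 times the lowest, as it was for 17.4% of all genes, and in 4 of the 30 the same held among the positive arrays (11.8% of all genes). Tpi1, Eno2 and Pfkfb3 had the widest ranges, at 12.4-fold, 10.8-fold and 4.22-fold among negative arrays and 1.43-fold, 1.31-fold and 1.27-fold among positive ones. Negative array 3 was the highest negative array for Tpi1, Eno2, Slc2a3, Pfkm and Pgam2 and the lowest for Pfkfb3. Negative array 1 was the lowest negative array for 18 of the 30 genes, where it was for 32.0% of all genes, including Hk2, Pfkl, Aldoa, Pkm, Ldha and Ldhb. Positive array 2 was the highest positive array for 16 of the 30, or 53.3%, against 24.6% of all genes.

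**Figure D5:**
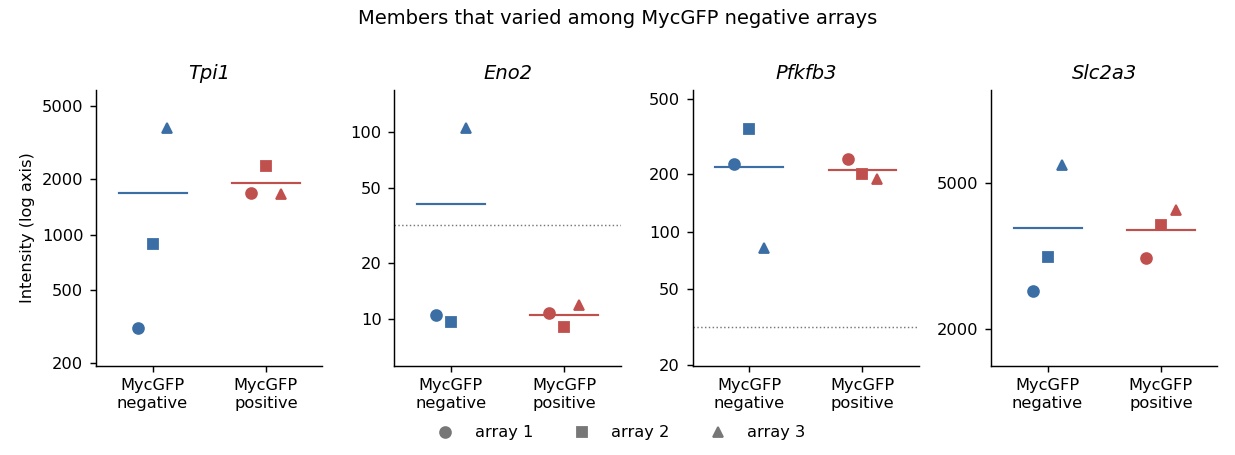
Intensity on each array (log axis) of Tpi1, Eno2, Pfkfb3 and Slc2a3; symbols give the array number, lines the arithmetic means and the dotted line the mean of the array medians where it is in range. Tpi1 runs from 309 to 3827 among the negative arrays and Eno2 stands out on negative array 3 at 104.

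The promoters of the 5 genes that passed are shown because the groups were sorted by GFP, which follows c-MYC. A difference between these groups does not by itself tie a gene to Myc. c-MYC and MondoA bind the E-box CACGTG with their partners, and hypoxia-inducible factors bind sites whose core can read ACGTG, the only form searched. The known glucose response element of Txnip is a pair of E-box-like elements. The sequences are the 250 bases before the annotated start, 5′ to 3′ on the gene's strand, from RefSeq on build GRCm38.p6, which held 33 of the 34 listed genes. Capitals mark the E-box, the hypoxia core on either strand (it reads CACGT on the other strand) and, in Txnip, 2 copies of CACGAG with 5 bases between them.
Hk2, chr6:82774455-82774704, minus strand: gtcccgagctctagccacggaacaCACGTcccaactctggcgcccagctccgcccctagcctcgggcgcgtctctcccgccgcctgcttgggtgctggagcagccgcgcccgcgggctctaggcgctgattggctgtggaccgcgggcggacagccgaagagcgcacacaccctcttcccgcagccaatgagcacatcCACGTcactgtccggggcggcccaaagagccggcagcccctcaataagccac
Pgam1, chr19:41911621-41911870, plus strand: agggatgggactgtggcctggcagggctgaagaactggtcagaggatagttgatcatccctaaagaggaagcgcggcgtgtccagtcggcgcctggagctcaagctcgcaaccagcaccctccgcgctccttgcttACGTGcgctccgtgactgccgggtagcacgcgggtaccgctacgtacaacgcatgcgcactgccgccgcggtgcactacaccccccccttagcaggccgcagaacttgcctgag
Ldha, chr7:46845554-46845803, plus strand: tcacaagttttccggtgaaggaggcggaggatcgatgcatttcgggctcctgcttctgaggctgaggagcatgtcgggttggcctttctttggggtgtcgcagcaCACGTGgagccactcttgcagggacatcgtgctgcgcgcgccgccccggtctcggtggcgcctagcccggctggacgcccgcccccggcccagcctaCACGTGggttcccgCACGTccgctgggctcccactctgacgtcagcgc
Pdk3, chrX:93832151-93832400, minus strand: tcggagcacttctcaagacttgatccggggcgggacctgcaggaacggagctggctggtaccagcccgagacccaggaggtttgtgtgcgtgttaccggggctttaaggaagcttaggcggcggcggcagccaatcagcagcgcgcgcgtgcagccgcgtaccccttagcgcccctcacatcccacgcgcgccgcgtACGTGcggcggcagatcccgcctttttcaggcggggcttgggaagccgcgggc
Txnip, chr3:96557707-96557956, plus strand: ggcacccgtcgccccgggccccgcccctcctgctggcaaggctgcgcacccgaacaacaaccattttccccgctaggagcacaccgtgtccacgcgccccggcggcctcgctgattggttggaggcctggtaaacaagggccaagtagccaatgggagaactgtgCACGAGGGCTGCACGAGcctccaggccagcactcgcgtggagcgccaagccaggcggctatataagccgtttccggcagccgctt

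The Ldha window, which belongs to the first of 2 annotated starts, held CACGTG at 145 to 140 and at 48 to 43 bases before the start. The windows of Hk2, Pgam1, Pdk3 and Txnip held none. On both strands, 6 of the 33 genes had CACGTG in at least 1 window, or 18.2%, against 6.86% of 27025 genes. The listed genes have more windows per gene, and by window the share was 11.5% of 52 against 6.02% of 32851. They were Ldha, Pdk2, Pfkfb2, Pfkfb3, Pfkm and Slc16a1, of which only Ldha passed the test. ACGTG, which every CACGTG contains, was in 15 of the 33, or 45.5%, against 18.5% of all genes, and in 36.5% of their windows against 16.6% of all windows. It occurred in the windows of Hk2, Pgam1, Ldha and Pdk3, not in that of Txnip. Other forms of the hypoxia core were not searched, so these shares do not cover all hypoxia sites. The Txnip window held the pair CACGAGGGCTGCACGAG at 85 to 69 bases before the start, and no other of the 32851 windows searched held 2 copies of CACGAG so spaced; these letters were chosen after this window was read. These matches describe letters in short windows and show no binding.

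Genes around the pathway were read from 5 lists in the same fit, against 6.13% of all genes called in either direction. Myc, which GFP follows, measured 801, 1135 and 1303 on negative and 2628, 3390 and 2274 on positive arrays, at a log2 difference of 1.37 (limma, adjusted p = 0.0329). Of 25 regulators of glycolytic genes, 2 were higher and 2 lower, and Myc, on whose reporter the cells were sorted, was among the higher. The other riser was Prkaa2, an AMP-activated kinase subunit gene, from 34.1 ± 6.00 to 89.6 ± 12.3 (SD, n = 3; adjusted p = 0.0174), whose negative values lie near the array medians and whose other, dimmer probe sets did not pass. With all Prkaa2 probe sets averaged the log2 difference was 0.72 instead of 1.40 (limma, adjusted p = 0.0575). Foxo1, a transcription factor of resting lymphocytes, was 2.40-fold lower (adjusted p = 0.0196). Mxd4, a repressor that competes with MYC for MAX, was 2.75-fold lower (adjusted p = 0.0438, but 0.0567 without negative array 1, 0.0925 without negative array 3 and 0.0556 with log2 of the intensity plus 16). Mxd1, a related repressor, had a log2 difference of -1.74 that did not pass with all arrays and no block (limma, adjusted p = 0.0602). It passed with the block (0.0300), with the filter on low values (0.0423) and without negative array 1 (0.0342). Of the list's other such repressors, Mxd3 went the other way, at 0.37 (limma, adjusted p = 0.341). Mnt was at -0.55 (0.495) and Mxi1 at -0.75 (0.0710, but 0.0285 with all probe sets averaged). Hif1a, a hypoxia factor gene, had a difference of -0.15 (95% interval -0.45 to 0.15; limma, adjusted p = 0.571). Epas1, another, measured 3276, 4884 and 6890 on negative and 471, 2970 and 3554 on positive arrays. Its groups overlapped, and the difference of -1.49 (95% interval -3.43 to 0.45) was not called (limma, adjusted p = 0.354). Arrdc4, the relative of Txnip that is known to respond to the same factor, lay at 14.9 to 20.4, below the array medians.

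The pentose phosphate pathway, which branches off after hexokinase, had 1 of 9 measured genes called. Tkt, the transketolase gene, measured 3768, 3821 and 4645 on negative and 8841, 8796 and 8832 on positive arrays. The positive arrays spanned a 1.005-fold range, and all were higher than every negative array (log2 difference 1.12, SE 0.14; limma, adjusted p = 0.0154). Of 8 pyruvate dehydrogenase complex genes, Pdhx, which anchors a subunit of the complex, was higher, from 59.5 ± 7.80 to 116 ± 4.91 (SD, n = 3; adjusted p = 0.0233, but 0.0504 with a trended and robust variance), and Dlat, its acetyltransferase gene, passed with the block (limma, adjusted p = 0.0455) and not without it (0.0915). Of 28 other isoforms and side enzymes, Tigar, a fructose bisphosphatase-like gene, was 2.27-fold higher (adjusted p = 0.0467), a call lost without any single array (0.0735 to 0.135), after median centring (0.0780), after quantile normalization (0.0782), with all probe sets averaged (0.129), with log2 of the intensity plus 16 (0.0585) and with a trended and robust variance (0.0635). Fbp1, whose fructose bisphosphatase works against phosphofructokinase, measured 43.7, 713 and 475 on negative and 99.0, 2533 and 2711 on positive arrays. Its groups overlapped but each positive array was above the negative array of its number, and the log2 difference of 1.84 passed with the block (limma, adjusted p = 0.601 without and 0.0409 with it). Pklr, the liver and erythrocyte pyruvate kinase gene, was 1.95-fold lower (limma, adjusted p = 0.0417), but not with the block (0.0677), a trended and robust variance (0.0770), all probe sets averaged (0.523) or without any single array (0.0520 to 0.121), and its other probe sets gave 0.48 and -0.15. Of 7 genes from the monocarboxylate transporter family, its partners and pyruvate carriers, limma called none. At an unadjusted p under 0.05, which 22.1% of all genes reached in either direction, 4 were higher. They were Bsg, the chaperone gene of MCT1, at 0.53 (adjusted p = 0.174), Mpc1, a mitochondrial pyruvate carrier gene, at 0.89 (0.0775), Slc16a6 at 0.71 (0.0697) and Slc16a10 at 1.12 (0.104, but 0.0437 with the block and 0.0263 with all probe sets averaged). Of the 8 genes called in the 5 lists none passed without positive array 1, 2 or 3, at adjusted p of 0.0564 to 0.121, and Prkaa2 alone passed without negative array 2 (0.0497).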

How the data were processed

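The 6 arrays were hybridised with biotin-labelled cDNA amplified from 5 ng of total RNA with the Ovation system, per the labels' protocols, which can favour 3' ends and add noise to dim genes. The authors deposited intensities per probe set, summarised with RMA per the submitters' processing notes. Its version was not given in the sources used here. All values are above 0 and on a linear scale, and log2 was taken. Because RMA equalises the arrays, these values cannot show whether cells held more RNA in all.

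Names came from GEO's platform annotation, with symbols updated by Entrez identifier to the RefSeq table of GRCm38.p6 (34741 matched). Of 45101 probe sets, 34945 had 1 symbol, 932 several, 9160 none, and 64 were controls. Groups came from the sample titles. Genes were tested with limma 3.58.1 in R 4.3.3 (lmFit, eBayes, two-sided; 4 residual and 2.17 prior degrees of freedom), with Benjamini-Hochberg adjustment over all 18193 genes at 0.05. No filter on low values was set, no detection calls were used, and 24 of the 30 genes lay above the array median on all arrays. Folds are antilogs of log2 differences. The fit was tested on simulated data. Arrays of the same number were taken to pair, since their deviations from the group means correlated across genes at r = 0.38, 0.21 and 0.39. Arrays of different number correlated at r = -0.32 to -0.03. The pairing was thus read from the same values that were tested, and the labels do not state it. The main fit does not use it, and the fit with this number as a block is given where it changes a call. All 30 genes are named. Of the 5 neighbouring lists the called genes are named. Further genes (Mxd1, Mxd3, Mnt, Mxi1, Hif1a, Epas1, Arrdc4, Dlat, Fbp1 and the 4 genes of the monocarboxylate list) were picked after their values were seen. Members, lists and tests were chosen with earlier results of these data known.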

Additional observations from a re-analysis of the deposited data

How the results depend on the processing

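The comparison was repeated under other settings, and adding Gapdh by its control probe set was chosen after seeing the data. Over the fits without 1 array, 0 to 4 of the glycolysis genes were called higher and 0 to 1 lower, 0 to 1038 of all genes were called, and 0 to 7 of the neighbouring genes. Without positive array 2, limma called no gene at all, with 3185 at an unadjusted p under 0.05. Without positive array 3, 130 were called, without positive array 1, 229, and without negative array 2, 168, against 1115 with all arrays. With the replicate block, the filter on low values and the trended and robust variance, 2 genes were called lower, Ldhb joining Txnip, and with log2 of the intensity plus 16, 0 were (limma). The block called 1401 of all genes and 5 of the 30 higher, the added one being Pfkl. It changed no other call among the 30. The trended and robust variance called 5 of the neighbouring genes instead of 8. Centring used the median of each array over genes, 1 probe set each, and not the array median over all probe sets given above. It shifted all genes' log2 differences by -0.15, and 56.9% of the called genes were then higher instead of 75.3%. After quantile normalization 64.1% were.

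The 5 called genes kept their direction under all alternatives, which their separate groups fix in part. Among the genes that were not called, 11 changed sign in 26 fits, none of them passing. Slc2a3 was at -0.108 with all probe sets averaged, -0.118 without _x_at and _s_at probe sets and -0.091 after centring. The probe set that gave -0.118 lay at 12.3 to 20.4, and another that entered the average at 8.58 to 25.0. Both were below the array median on all 6 arrays, and the brighter probe sets gave 0.059 and 0.042. Centring gave -0.035 for Hk1, -0.022 for Pfkfb4 and -0.039 for Pdk4. Quantile normalization gave -0.070 for Hk1, -0.017 for Pfkm and -0.015 for Pfkfb3, and averaging gave 0.13 for Pfkp. Without 1 array the differences ran from -0.18 to 0.39 for Slc2a3, -0.10 to 0.42 for Hk1, -0.21 to 0.49 for Pfkm, -0.13 to 0.16 for Pfkp, -0.92 to 0.018 for Pfkfb2, -0.42 to 0.62 for Pfkfb3, -0.22 to 0.23 for Aldoc, -1.65 to 0.064 for Eno2, -0.29 to 0.094 for Pdk2 and -0.048 to 0.26 for Pdk4. Without _x_at and _s_at probe sets Aldoa could not be measured. Each cause was not tested. The number of arrays limits the precision, and Aldoc, Pdk2 and Pdk4 lay below the array median throughout.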
